A study of Arabidopsis thaliana with 8 samples.

Results

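The comparison set roots of bzr1-D seedlings of Arabidopsis thaliana against wild-type roots, both supplied with adequate inorganic phosphate (Pi). It rested on 4 of the 8 RNA-seq libraries of the study, 2 of bzr1-D and 2 of wild type, taken by the genotype and Pi supply in their labels and paired by their Exp number, 1 or 2. Both lines were in the Columbia-0 (Col-0) background per the labels, which name no other allele. Plants were kept at 22 °C with 16 h of light and 8 h of dark on Murashige and Skoog medium holding 0.2% sucrose, spent their last 24 h at 0.625 mM Pi, and had their roots taken on day 7. The other 4 libraries, bzr1-D and wild type after 24 h at 1 µM Pi (low Pi), served as a separate set of libraries in which the same genotype difference could be read. They also helped to estimate the spread and the shift between Exp numbers behind the p-values. The labels do not say how many seedlings went into a library or whether bzr1-D was more than 1 line, so p-values measure the spread between these libraries.

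Brassinosteroids are steroid hormones that promote cell elongation and set the pace of division and differentiation in the root. The receptor kinase BRI1, with its partner BAK1, binds the hormone at the cell surface and shuts off the kinase BIN2, which lets the transcription factors BZR1 and BES1 accumulate in the nucleus. BZR1 represses genes of hormone synthesis, a feedback loop, and binds short promoter motifs of the brassinosteroid response element and G-box types. The dominant bzr1-D allele encodes a stabilised BZR1 protein, so the line is a gain-of-function model in every cell that expresses the gene, and a transcript count does not report on the amount of protein.

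Total counts were 19486426 and 15947895 in the bzr1-D libraries and 19526263 and 22150569 in the wild-type libraries, so that a level of 1 CPM (counts per 1000000 counts) rested on at least 15.9 counts. Of 40246 features, 20262 had enough counts to be tested. Levels below are CPM scaled by TMM, with Exp 1 before Exp 2, and differences are log2 fold changes of bzr1-D over wild type with their standard error (SE). Adjusted p-values are Benjamini-Hochberg values of edgeR's quasi-likelihood test with the Exp number as a replicate block, and features under 0.05 are the ones called. The 9 root markers summed to 9080 and 7450 CPM in bzr1-D and 9910 and 8510 CPM in wild type. PYK10, a beta-glucosidase of root ER bodies, had 8610 and 7020 CPM in bzr1-D and 9370 and 7970 CPM in wild type. The 14 shoot markers summed to 164 and 152 CPM in bzr1-D and 111 and 98 CPM in wild type. Of these 14, 13 had a positive log2 fold change (median 0.79), and 1 was called (7.14%, against 7.4% of all features). This was LHCA3, a light-harvesting protein of photosystem I, at 11.3 and 12.9 CPM in bzr1-D against 6.94 and 6.16 CPM in wild type (0.89 ± 0.17, edgeR adjusted p = 0.0063, and 0.0978 without the block). The most abundant shoot markers that did not pass were PSBO1 (39.1 and 43.1 CPM in bzr1-D, 31.0 and 35.9 CPM in wild type) and RCA (34.7 and 37.7 CPM in bzr1-D, 28.1 and 23.4 CPM in wild type). RBCS1B, RBCS2B and RBCS3B, small subunits of Rubisco, were at or below 2.03 CPM in bzr1-D and 0.355 CPM in wild type, and all 3 were at 0 in the second wild-type library. Of the 14 shoot markers, 6 lay in the chromosome regions dense in called genes that are described below, and 0 of these 6 were called. How far position affects the shoot sums was not tested. The part of this shoot signal in the results below was not tested, and in whole roots fewer cells of a type and less RNA per cell cannot be told apart.

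In all, 1500 of the 20262 features (7.4%) were called, 570 higher in bzr1-D (2.81%) and 930 lower (4.59%). The difference had the same sign in Exp 1 and Exp 2 for 1496 of the 1500 (99.7%, against 59.5% of all features tested), and the values of bzr1-D and wild type did not overlap for 1405 (93.7%, against 32.8% of all). The calls were made from these same values, so these shares are no separate check of them. Most differences were modest: 673 called genes (3.32% of the features tested) had an absolute log2 fold change of at least 1, of which 255 were higher (1.26%) and 418 lower (2.06%), and the median was 0.88 among genes called higher and -0.89 among genes called lower. The median over all features tested was 0.01. Without the block, 404 were called (1.99%), 143 higher (0.706%) and 261 lower (1.29%), and all 404 were among the 1500. The block fits the same Exp shift to both genotypes, and where the shift differs between them the p-values may be too small. Leaving out any of the 4 libraries brought the count down to between 220 and 270 higher and between 394 and 570 lower.

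Of 14 tested genes of brassinosteroid synthesis, 6 fell in bzr1-D and none rose, against 4.59% of all features called lower, and the list's median log2 fold change was -0.08. Of the 6, 5 encode cytochrome P450 enzymes and 1 a sterol isomerase. CYP90D1, a C-23 hydroxylase, had 8.01 and 5.09 CPM in bzr1-D and 19.5 and 15.7 CPM in wild type. It showed the strongest change of the list, -1.44 ± 0.13 (edgeR adjusted p = 2.71e-05, and 0.0548 without the block). DWF4, the C-22 hydroxylase whose step limits the pathway, had 17.3 and 11.2 CPM in bzr1-D and 30.1 and 27.3 CPM in wild type. Its difference of -1.04 ± 0.16 passed with the block (edgeR adjusted p = 0.00331) but not without it (0.219) or without the second bzr1-D library (0.0817).

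BR6OX2, which makes castasterone and oxidises it to brassinolide, had 9.46 and 10 CPM in bzr1-D and 18.7 and 20.4 CPM in wild type. The replicates lay close together, and the difference of -1.0 ± 0.11 passed with and without the block (edgeR adjusted p = 0.000122 and 0.0096). CPD, a C-3 oxidase, had 23.0 and 25.5 CPM in bzr1-D and 36.0 and 47.5 CPM in wild type (-0.77 ± 0.09, edgeR adjusted p = 0.000272, and 0.0916 without the block). CYP90D1, BR6OX2 and CPD kept their calls when any of the 4 libraries was left out. BR6OX1, the paralog of BR6OX2, had 5.67 and 5.90 CPM in bzr1-D and 9.07 and 8.36 CPM in wild type. HYD1, a sterol isomerase upstream of the hormone-specific steps, had 78.0 and 74.9 CPM in bzr1-D and 108 and 97.8 CPM in wild type. These differences, -0.59 ± 0.16 for BR6OX1 (edgeR adjusted p = 0.0446) and -0.43 ± 0.09 for HYD1 (edgeR adjusted p = 0.00927), lost their calls without the block and whichever library was left out.

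The other sterol and steroid enzymes did not pass. DWF1, the most heavily counted of them, had 704 and 619 CPM in bzr1-D and 731 and 601 CPM in wild type (-0.01 ± 0.10). DET2, the steroid 5-alpha-reductase, had 24.0 and 22.1 CPM in bzr1-D and 26.3 and 22.1 CPM in wild type (-0.07 ± 0.12), and ROT3, a close relative of CYP90D1, had 60.0 and 58.3 CPM in bzr1-D and 55.2 and 60.6 CPM in wild type (0.03 ± 0.09). DET2 and ROT3 each overlap another gene, so that their counts are uncertain without a known strand setting. The groups overlapped for DWF1, DET2 and ROT3. None of the 4 tested genes of hormone inactivation passed: BAS1, a C-26 hydroxylase that inactivates brassinosteroids, had 20.7 and 24.2 CPM in bzr1-D and 15.8 and 20.6 CPM in wild type (0.31 ± 0.11, edgeR adjusted p = 0.143).

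**Figure D1:**
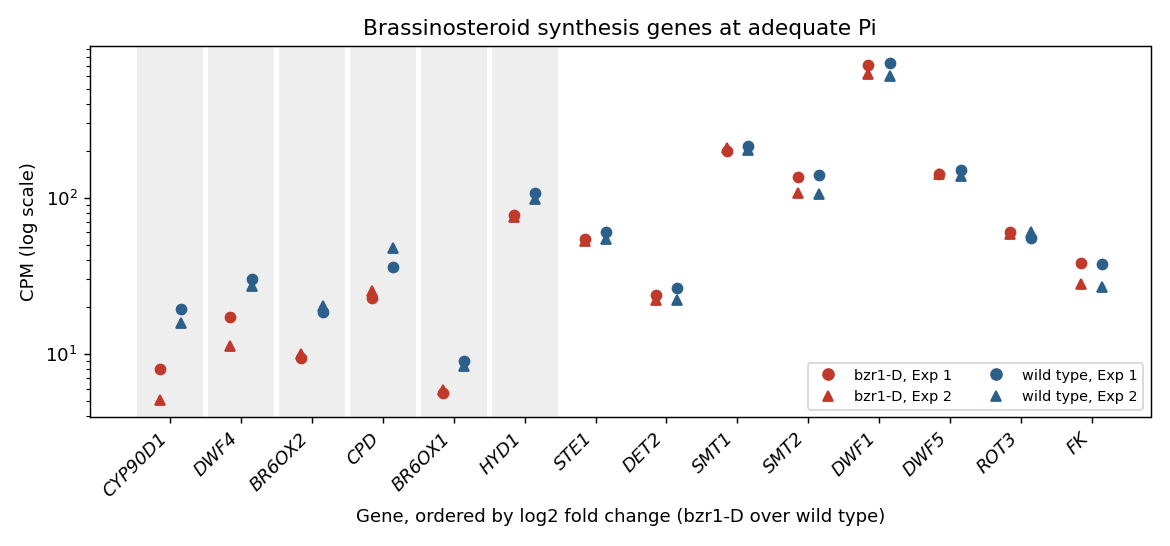
Levels of the 14 brassinosteroid synthesis genes at adequate Pi in CPM on a log scale, with bzr1-D in red left of wild type in blue, circles for Exp 1 and triangles for Exp 2. Genes run from the most negative log2 fold change on the left (CYP90D1, -1.44) to the right, and the 6 on a grey ground passed the test; for these, every bzr1-D value lies below both wild-type values.

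Of 22 tested genes of brassinosteroid perception and signalling, 1 fell and none rose (4.55%, against 4.59% of all features called lower), and the median was 0.02. BZR1 itself had 28.7 and 33.9 CPM in bzr1-D and 28.1 and 30.3 CPM in wild type (0.10 ± 0.09, edgeR adjusted p = 0.713); counts per gene hold no base calls, so they do not show the allele. The receptor gene BRI1 had 127 and 144 CPM in bzr1-D and 150 and 151 CPM in wild type (-0.16 ± 0.09, edgeR adjusted p = 0.454). BES1 differed by -0.11 ± 0.09, BKI1, an inhibitor of the receptor, by 0.04 ± 0.15, and BIN2 by 0.12 ± 0.09. The member that passed was BEH2, a homologue of BZR1, at 48.7 and 51.6 CPM in bzr1-D and 62.9 and 75.7 CPM in wild type (-0.46 ± 0.09, edgeR adjusted p = 0.00725, and 0.339 without the block).

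Among 11 growth genes of the brassinosteroid response, 1 rose and 1 fell (18.2%, against 7.4% of all features), 9 had a positive difference, and the median was 0.18. BEE1, a basic helix-loop-helix (bHLH) factor first known for its early induction by the hormone, had 2.34 and 3.23 CPM in bzr1-D and 0.861 and 1.21 CPM in wild type (1.43 ± 0.28, edgeR adjusted p = 0.00747, and 0.208 without the block). IBH1, a bHLH factor that restrains cell elongation and is repressed by BZR1, had 19.7 and 20.6 CPM in bzr1-D and 23.2 and 30.8 CPM in wild type (-0.42 ± 0.11, edgeR adjusted p = 0.0398, and 0.418 without the block). The groups did not overlap for either gene. BEE2 and IAA19 had positive differences of 0.47 ± 0.18 and 0.44 ± 0.17 that did not pass (edgeR adjusted p = 0.184 and 0.178).

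BRAVO stood furthest from 0 among the genes of the root meristem. It encodes a MYB factor that holds back division of quiescent centre cells and is repressed by brassinosteroid signalling, and had 2.86 and 3.04 CPM in bzr1-D and 8.41 and 11 CPM in wild type (-1.70 ± 0.17, edgeR adjusted p = 4.91e-05, and 0.00811 without the block), and kept its call whichever library was left out. It was the 1 called gene of 12 tested meristem genes (8.33%, against 7.4% of all features), whose median was 0.09. PLT1, SCR and WOX5, factors of the stem cell niche, differed by 0.02 ± 0.16, 0.05 ± 0.08 and 0.35 ± 0.28 and did not pass.

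The 500 bases before the start of each tested protein-coding gene were searched for CGTGTG and CGTGCG, the brassinosteroid response element, and for CACGTG, the G-box, on both strands. A response element preceded by CA, or its reverse followed by TG, overlaps a CACGTG, and such a match counts under both. CGTGTG stood before 15.1% of 853 genes called lower, 8.83% of 521 genes called higher and 10.5% of all 19480 genes. CGTGCG stood before 4.81% of the genes called lower, 1.15% of those called higher and 3.23% of all, and CACGTG before 13.6%, 9.79% and 11.9% of the same groups. Any of the 3 was found for 26.3% of genes called lower, 17.7% of genes called higher and 21.5% of all. The sites of CPD, BRAVO, WRKY40 and BEE1 are shown, as called genes with 1 match each, with the motif in capitals on the gene's strand, from the TAIR10.1 reference at TAIR10 positions.
CPD, chr5:1706781-1706798, minus strand, CGTGTG 6 to 1 bases before the start: gcagaaacccccCGTGTG
BRAVO, chr5:5876854-5876883, plus strand, the reverse of CGTGCG 323 to 318 bases before the start: ataaaatgaaacCGCACGtaattgtataaa
WRKY40, chr1:30383486-30383515, plus strand, CGTGTG 193 to 188 bases before the start: ttggaccaaataCGTGTGcgggtggacccg
BEE1, chr1:6331250-6331279, plus strand, CACGTG 136 to 131 bases before the start: cgttcacttgccCACGTGgctctcccttta
CPD, BRAVO and WRKY40 were lower in bzr1-D and BEE1 was higher. MYB12, also lower, had 5 matches, 3 of them CACGTG and 2 CGTGTG that overlap one of these, so the G-box was found before called genes of both directions. CYP90D1, DWF4, BR6OX1, BR6OX2, HYD1, IBH1, LPR1, XTH24 and RSL4, also lower, had 0 matches in their 500 bases, which says only that these letters are not in this window. Matches also stood before genes that were not called, 2 each for DWF5 and IAA19 and 1 each for KCS1 and GLK2.

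Over the 19 gene lists together, 265 distinct genes were tested and 29 were called (10.9%, against 7.4% of all features), 9 higher and 20 lower. Without the block, 3 of the 265 were called higher and 2 lower, against 1.99% of all features called in either direction. The lists were chosen with earlier results of these data known, so these shares do not test the lists. When each of the 4 libraries was left out in turn, 6 of the 29 kept their call every time (CYP90D1, BR6OX2, CPD, BRAVO, PHT1;3 and IRE), 14 kept it in some of the fits, and 9 lost it in every one (BR6OX1, HYD1, PHT1;2, PAP26, NAS4, EXPA15, RSL4, MYB36 and PIN4).

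**Figure D2:**
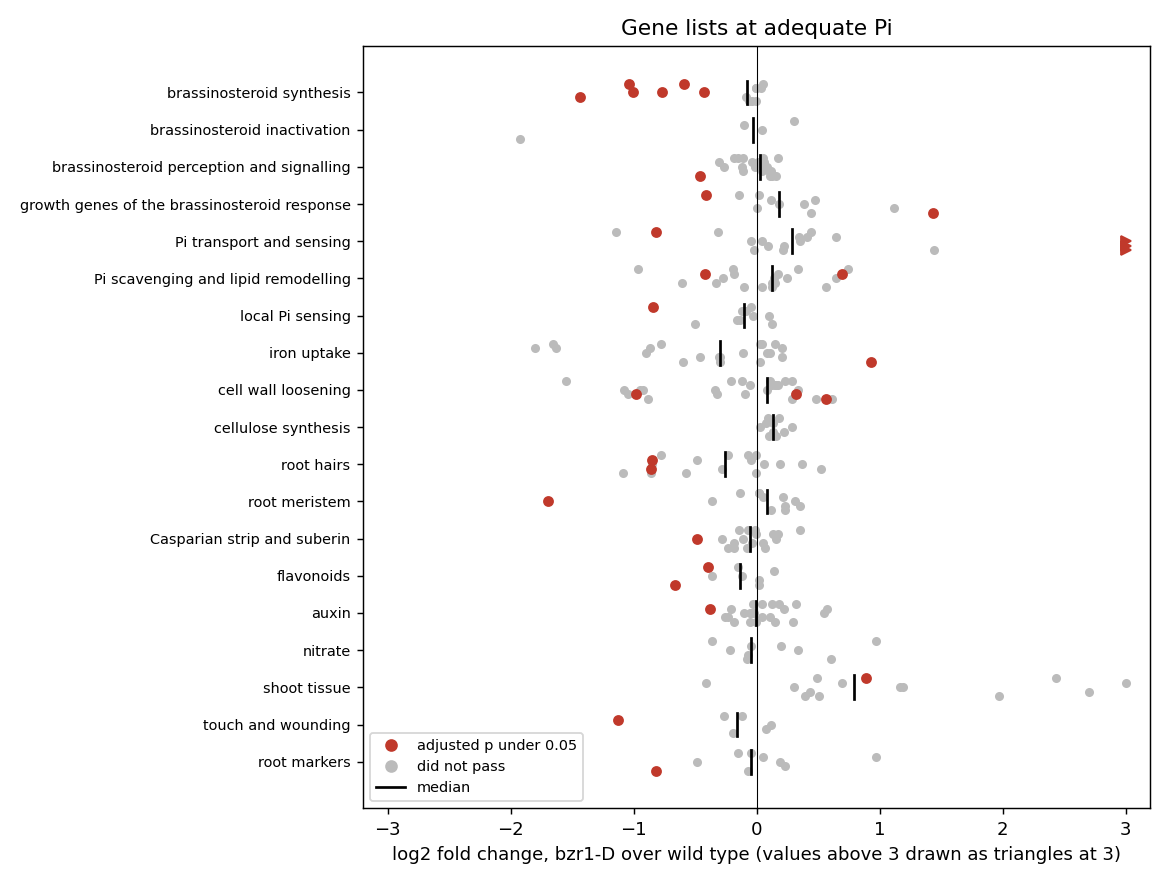
Log2 fold change of bzr1-D over wild type at adequate Pi for every tested member of the 19 lists. Red points passed the test, grey points did not, and the black bar is the list's median; brassinosteroid synthesis has 6 red points, all left of 0, and the median of shoot tissue, at 0.79, lies furthest from 0.

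Of 18 tested genes of Pi transport and sensing, 3 rose and 1 fell (22.2%, against 7.4% of all features), the median was 0.28 (Exp 1 alone gave 0.50, Exp 2 alone -0.05), and the largest log2 fold changes of the 19 lists were among them. PHT1;1, PHT1;2 and PHT1;3 are high-affinity Pi transporters that stand side by side on chromosome 5, between 17399789 and 17417798 (TAIR10), and whose coding sequences are near identical. PHT1;2 had 92.5 and 67.3 CPM in bzr1-D against 0.152 and 0.270 CPM in wild type (8.52 ± 0.96, edgeR adjusted p = 0.0311). PHT1;3 had 4.78 and 3.17 CPM in bzr1-D against 0.0506 and 0 CPM in wild type, where it rested on 1 count, a ratio of 170 with a 95% counting interval of 30 to 6760 (exact, counting error only). PHT1;1 went the other way, with 134 and 93.4 CPM in bzr1-D and 211 and 189 CPM in wild type (-0.82 ± 0.15, edgeR adjusted p = 0.00789, and 0.101 without the block).

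The sum over the 3 neighbours was 231 and 164 CPM in bzr1-D and 211 and 189 CPM in wild type, so the groups overlapped. At low Pi the sums were 350 and 405 CPM in bzr1-D and 331 and 311 CPM in wild type, and PHT1;2 had 153 and 175 CPM in bzr1-D and 0.716 and 4.70 CPM in wild type. The wild-type libraries thus assigned nearly all counts of the cluster to PHT1;1, whereas the bzr1-D libraries shared them between PHT1;1 and PHT1;2 at both Pi supplies. As nothing says how reads with several matches were counted, the split between these genes is uncertain. The call of PHT1;2 was lost whichever library was left out (edgeR adjusted p from 0.0773 to 0.306).

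**Figure D3:**
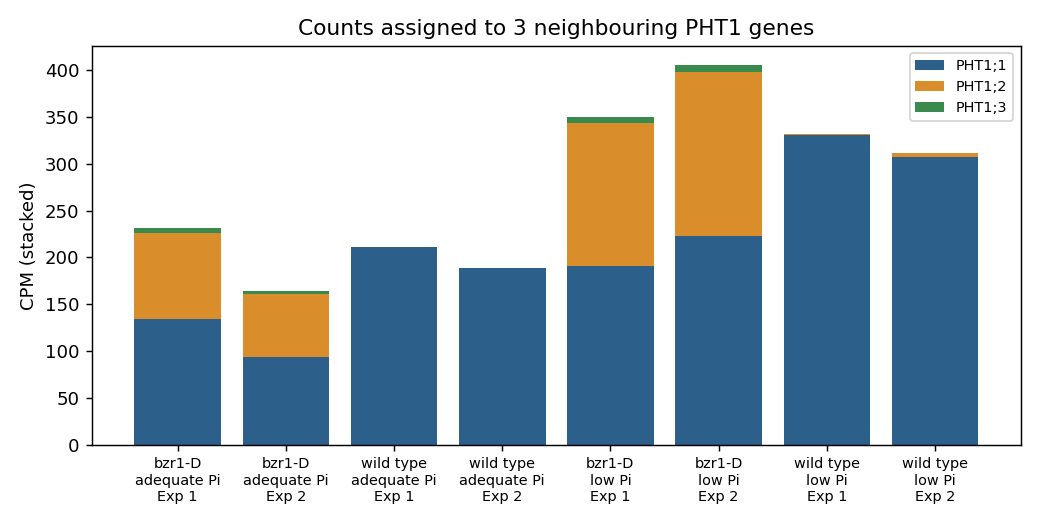
CPM assigned to PHT1;1, PHT1;2 and PHT1;3, stacked, in each of the 8 libraries. PHT1;2 is visible in all 4 bzr1-D libraries, at 67.3 CPM or more, and lies at 4.70 CPM or less in the 4 wild-type libraries, while the stacks at adequate Pi overlap in height.

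PHT1;8, a transporter of the same family on chromosome 1, had 1.87 and 1.37 CPM in bzr1-D against 0 and 0.135 CPM in wild type, where it rested on 3 counts, a ratio of 23 with a counting interval of 7.48 to 115. It passed the test (edgeR adjusted p = 0.00577) and lost the call without the first bzr1-D library (0.0673). The other members did not pass: PHO1, which loads Pi into the xylem, had 569 and 719 CPM in bzr1-D and 530 and 574 CPM in wild type (0.22 ± 0.14), and PHR1, the central factor of the Pi starvation response, differed by -0.05 ± 0.08. SPX1 and IPS1, sensitive readouts of Pi shortage, had 13.2 and 6.59 CPM and 0.832 and 0.249 CPM in bzr1-D, against 7.45 and 7.78 CPM and 0.0506 and 0.360 CPM in wild type, and their groups overlapped.

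Of 20 genes of Pi scavenging and lipid remodelling, 1 rose and 1 fell (10%, against 7.4% of all features). PPCK2, a kinase of phosphoenolpyruvate carboxylase, had 12.5 and 15.8 CPM in bzr1-D and 8.00 and 9.53 CPM in wild type (0.69 ± 0.15, edgeR adjusted p = 0.0162). PAP26, a main acid phosphatase of the vacuole and cell wall, had 269 and 263 CPM in bzr1-D and 343 and 370 CPM in wild type (-0.42 ± 0.09, edgeR adjusted p = 0.0154). LPR1, the multicopper ferroxidase of local Pi sensing in the root tip, was the 1 called gene of 10 on that list (10%, against 7.4% of all features), at 7.59 and 4.72 CPM in bzr1-D and 12.6 and 9.35 CPM in wild type (-0.84 ± 0.15, edgeR adjusted p = 0.00358). PDR2 and ALS3, on the same list as LPR1, differed by 0.12 ± 0.08 and -0.04 ± 0.17 and did not pass. Without the block, PPCK2, PAP26 and LPR1 did not pass either (edgeR adjusted p = 0.496, 0.179 and 0.384).

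Iron uptake had 1 called gene of 21 (4.76%, against 7.4% of all features). Its median of -0.30 was not shared by the replicates, being 0.08 within Exp 1 and -0.38 within Exp 2. NAS4, a nicotianamine synthase, had 8.84 and 3.29 CPM in bzr1-D and 5.22 and 1.39 CPM in wild type, groups that overlapped although the difference was positive in both Exp numbers (0.93 ± 0.21, edgeR adjusted p = 0.0173, and 1.0 without the block). The iron transporter IRT1 had 106 and 126 CPM in bzr1-D and 68.4 and 219 CPM in wild type, and the ferric reductase FRO2 had 95.4 and 125 CPM in bzr1-D and 62.5 and 257 CPM in wild type. For both, the wild-type library of Exp 2 was the highest of the 4 and that of Exp 1 the lowest. The nitrate list had 0 called genes of 9, and the dual-affinity transporter NRT1.1 had 843 and 551 CPM in bzr1-D and 898 and 705 CPM in wild type.

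Among 27 genes of cell wall loosening, 2 rose and 1 fell (11.1%, against 7.4% of all features). XTH4, a xyloglucan endotransglucosylase, had 181 and 208 CPM in bzr1-D and 117 and 148 CPM in wild type (0.56 ± 0.09, edgeR adjusted p = 0.00229). The expansin gene EXPA15 had 71.3 and 40.0 CPM in bzr1-D and 57.2 and 32.1 CPM in wild type, higher within each Exp number although the groups overlapped (0.32 ± 0.08, edgeR adjusted p = 0.0395). XTH24, another member of the xyloglucan-modifying family, had 59.8 and 99.0 CPM in bzr1-D and 128 and 181 CPM in wild type (-0.98 ± 0.16, edgeR adjusted p = 0.00838). All 10 cellulose synthesis genes had positive differences, with a median of 0.13, and none passed; CESA1, a catalytic subunit of the primary wall complex, had 830 and 796 CPM in bzr1-D and 757 and 683 CPM in wild type (0.18 ± 0.10). XTH4, EXPA15 and XTH24 did not pass without the block (edgeR adjusted p = 0.169, 1.0 and 0.388).

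Of 18 root hair genes, 2 fell and none rose (11.1%, against 7.4% of all features), 14 had a negative difference, and the median was -0.26. RSL4, the bHLH factor that sets hair length, had 5.46 and 4.72 CPM in bzr1-D and 8.31 and 10.2 CPM in wild type (-0.85 ± 0.20, edgeR adjusted p = 0.0233, and 0.153 without the block). IRE, an AGC kinase that promotes hair elongation, had 7.96 and 6.03 CPM in bzr1-D and 14.7 and 10.7 CPM in wild type (-0.86 ± 0.14, edgeR adjusted p = 0.00263, and 0.247 without the block). RSL2, a relative of RSL4, had 10.7 and 3.85 CPM in bzr1-D and 15.4 and 14.7 CPM in wild type and did not pass (-1.09 ± 0.35, edgeR adjusted p = 0.191). The cell-fate factors GL2 and WER, which mark non-hair cells, differed by 0.19 ± 0.12 and -0.04 ± 0.11.

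In the other tissue and metabolite lists, 1 or 2 genes each were called. MYB36, which switches on the Casparian strip programme of the endodermis, had 15.3 and 18.1 CPM in bzr1-D and 19.9 and 27.4 CPM in wild type (-0.49 ± 0.11, edgeR adjusted p = 0.0142). It was the 1 called gene of 18 Casparian strip and suberin genes (5.56%, against 7.4% of all features), and the strip proteins CASP1 and CASP4 differed by -0.07 ± 0.09 and -0.01 ± 0.10. Of 8 flavonoid genes, 2 fell (25.0%, against 7.4% of all features): MYB12, a flavonol activator, had 11.8 and 10.7 CPM in bzr1-D and 19.2 and 16.5 CPM in wild type (-0.66 ± 0.11, edgeR adjusted p = 0.00329), and the glucosyltransferase gene UGT78D2 had 45.5 and 28.6 CPM in bzr1-D and 52.3 and 43.4 CPM in wild type (-0.40 ± 0.10, edgeR adjusted p = 0.0375). CHS, the first enzyme of the pathway, had 559 and 367 CPM in bzr1-D and 566 and 450 CPM in wild type and did not pass. Of 23 auxin genes, 1 was called (4.35%, against 7.4% of all features). This was the efflux carrier PIN4, which fell, at 34.8 and 33.5 CPM in bzr1-D and 44.2 and 44.6 CPM in wild type (-0.38 ± 0.10, edgeR adjusted p = 0.0437). Its relative PIN3 had a positive difference of 0.30 ± 0.09 that did not pass (edgeR adjusted p = 0.0847). WRKY40 was the 1 called gene of 6 tested on the touch and wounding list (16.7%, against 7.4% of all features). It had 3.48 and 3.91 CPM in bzr1-D and 5.52 and 11.4 CPM in wild type (-1.13 ± 0.22, edgeR adjusted p = 0.00915), and overlaps the gene AT1G80850. None of MYB36, MYB12, UGT78D2, PIN4 and WRKY40 passed without the block (edgeR adjusted p = 0.56, 0.0978, 0.972, 0.423 and 0.342).

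The called genes were spread unevenly over the chromosomes. On chromosome 5, 584 of 4722 tested features were called (12.4%), and on chromosome 1, 510 of 5346 (9.54%). Chromosome 3 had 241 of 4016 (6.0%), whereas chromosome 2 had 82 of 3071 (2.67%) and chromosome 4 had 83 of 3065 (2.71%). Without the block the shares were 3.94% on chromosome 5, 2.75% on chromosome 1, 1.47% on chromosome 3, 0.195% on chromosome 2 and 0.196% on chromosome 4. In the low Pi libraries, where 1823 features were called between the genotypes (9.0%), the shares were 13.5% on chromosome 5, 11.1% on chromosome 1, 7.52% on chromosome 3, 3.97% on chromosome 2 and 5.35% on chromosome 4.

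Windows of 1 Mb were called dense where they held at least 5 called genes and at least 4 times the share over all features, 29.6%. There were 3 such windows, all on chromosome 5. The window from 10 to 11 Mb held 16 called of 50 tested (32%), that from 15 to 16 Mb held 42 of 135 (31.1%), and that from 17 to 18 Mb, which holds the PHT1 cluster, 61 of 192 (31.8%). In them 119 genes were called, and 1381 were called elsewhere. All 16, 42 and 61 had the same sign in the low Pi libraries, as had 99.4% of all called genes. At low Pi, 29.4% of the 377 features of these windows were called, against 9.0% of all features. The windows were picked from the calls at adequate Pi, whose fit also used the low Pi libraries. With 2 times the share (14.8%), a threshold chosen after the values were seen, 20 of 121 windows were dense and joined into 8 regions. The widest ran from 13 to 20 Mb of chromosome 5, with 250 of 1040 called (24.0%), from 7 to 11 Mb of chromosome 5, with 124 of 552 (22.5%), and from 10 to 14 Mb of chromosome 1, with 96 of 488 (19.7%).

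**Figure D4:**
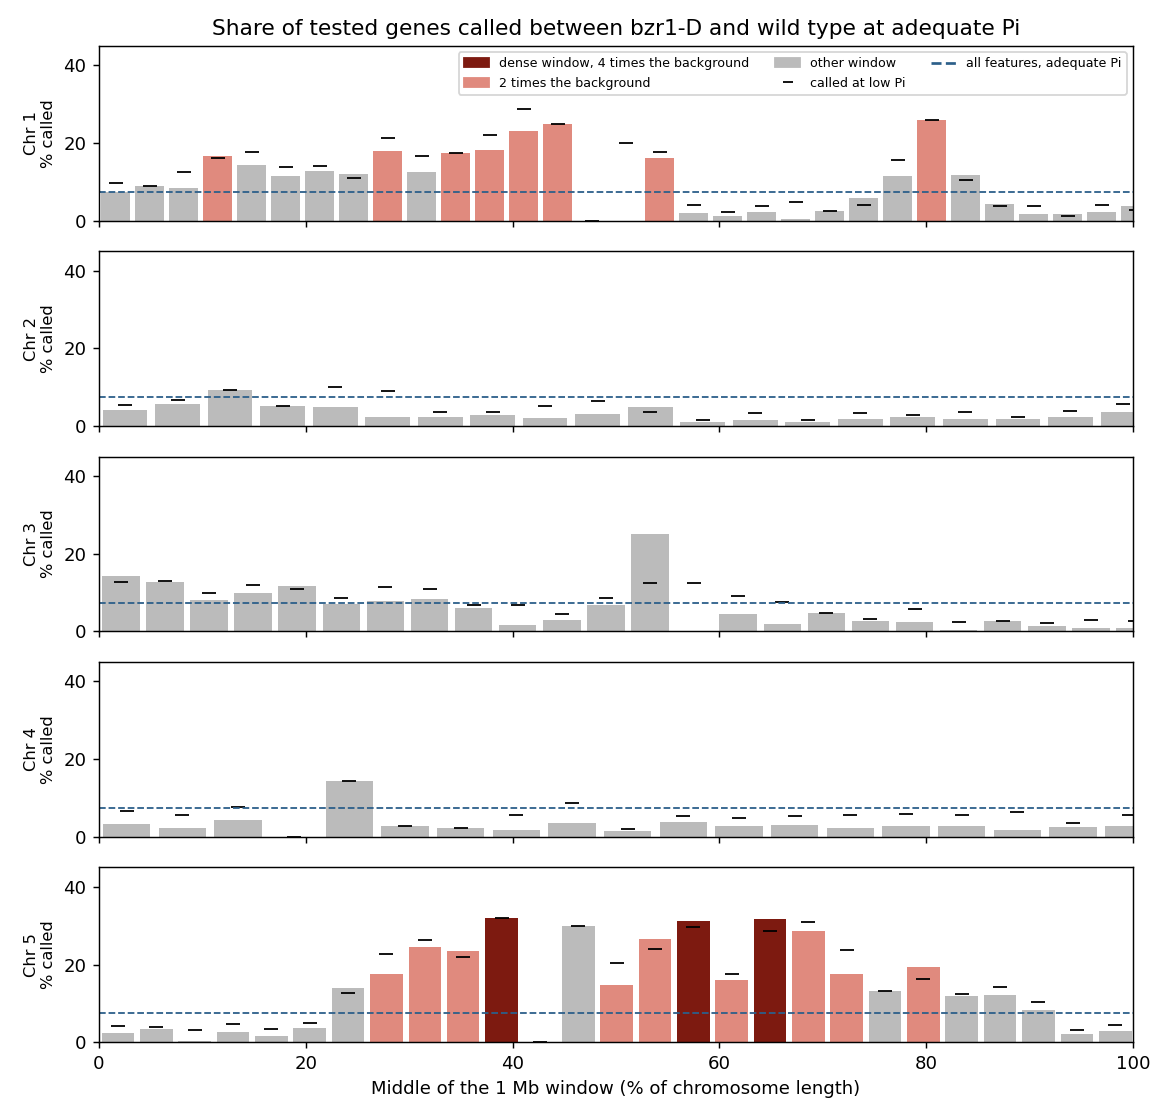
Share of tested features called between bzr1-D and wild type at adequate Pi in 1 Mb windows along the 5 chromosomes, against the window's middle in percent of chromosome length, with a dash for the share called at low Pi. The dashed line is the share over all features, 7.4%; dark bars are the 3 windows at 4 times and pale red bars those at 2 times that share with at least 5 called genes, all on chromosomes 1 and 5.

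Inside the 8 regions, 632 of 2918 features were called (21.7%), with a median absolute log2 fold change of 1.12, and 145 of them had an absolute log2 fold change of at least 3. Outside, 868 of 17344 were called (5.0%), 344 higher and 524 lower, with a median of 0.78, and 83 reached 3. This 5.0% is an average over unlike stretches. Windows from 0 to 8 Mb of chromosome 3 held 6.99% to 14.4% called, and those from 17 to 24 Mb held 0.424% to 2.72%. The window from 4 to 5 Mb of chromosome 1 held 14.3%, and that from 6 to 7 Mb of chromosome 5 held 13.9%. The brassinosteroid genes that were called lay outside the regions, with the exception of BR6OX1, which stands in the window from 15 to 16 Mb of chromosome 5. Still, CYP90D1 stood in a window with 11.7% called, and HYD1 and BEE1 in a window with 12.7%, against 7.4% of all features. The windows of CPD, DWF4, BR6OX2, BEH2 and IBH1 held 3.4%, 2.39%, 6.9%, 2.65% and 1.85%. PHT1;1, PHT1;2, PHT1;3, PAP26 and LPR1 lay inside them. Counts per gene hold no base calls, so whether the bzr1-D line matches the Col-0 reference sequence at these places, on which the counts of the genes there depend, was not tested.

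Some genes of these regions were near silent in one line and well counted in the other. AT5G23830, which encodes an MD-2-related lipid recognition protein, had 0.156 and 0 CPM in bzr1-D, where it rested on 3 counts, and 174 and 110 CPM in wild type, 1650 times lower with a counting interval of 564 to 8000. PP2-A8, a phloem lectin-like protein gene, had 0.0520 and 0 CPM in bzr1-D (1 count) and 44.2 and 69.4 CPM in wild type, 2030 times lower with an interval of 364 to 80300. AT1G35115, a pseudogene, had the same levels in bzr1-D (1 count) and 58.7 and 52.0 CPM in wild type, 1950 times lower with an interval of 349 to 77000. All 3 were at or below 0.0511 CPM in the low Pi libraries of bzr1-D.

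In the dense window from 10 to 11 Mb of chromosome 5, the genes of smallest p were AT5G28350, CYSD2 and SADHU1-3. AT5G28350, annotated as a RIC1-like guanyl-nucleotide exchange factor, had 2.70 and 3.23 CPM in bzr1-D and 36.6 and 33.9 CPM in wild type (-3.58 ± 0.16, edgeR adjusted p = 5.29e-08). CYSD2, a cysteine synthase, had 20.7 and 18.1 CPM in bzr1-D and 69.2 and 67.7 CPM in wild type (-1.82 ± 0.09, edgeR adjusted p = 1.11e-07). SADHU1-3, a non-coding retroelement, was higher, with 23.9 and 21.7 CPM in bzr1-D and 7.60 and 8.72 CPM in wild type (1.48 ± 0.12, edgeR adjusted p = 9.44e-06). The replicates of each genotype lay close together for all 3, and their groups were far apart.

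In the window from 15 to 16 Mb, the methyltransferase gene AT5G38020 had 20.9 and 9.01 CPM in bzr1-D and 118 and 60.9 CPM in wild type (-2.60 ± 0.11, edgeR adjusted p = 3.52e-08, and 0.0675 without the block). AT5G38350, a disease resistance gene of the NBS-LRR class, had 0.104 and 0.124 CPM in bzr1-D and 11.4 and 13.8 CPM in wild type (-6.71 ± 0.30, edgeR adjusted p = 4.77e-08). The non-coding RNA AT5G38005 had 0.104 and 0.0621 CPM in bzr1-D (3 counts) and 9.83 and 10.1 CPM in wild type, 117 times lower with a counting interval of 39.8 to 571. In the window from 17 to 18 Mb, the transcribed pseudogene AT5G44417 was higher, with 117 and 166 CPM in bzr1-D and 16.6 and 21.5 CPM in wild type (2.88 ± 0.11, edgeR adjusted p = 2.19e-08). AT5G42825, which encodes an uncharacterised protein, had 0 and 0.0621 CPM in bzr1-D (1 count) and 8.51 and 12 CPM in wild type, 367 times lower with an interval of 65.5 to 14500.

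Of the 1500 called genes, 60 had 0 counts in both bzr1-D libraries, 20 on chromosome 1, 32 on chromosome 5, 6 on chromosome 3, 2 on chromosome 2 and 0 on chromosome 4. Another 24 had 0 counts in both wild-type libraries, 11 on chromosome 1, 11 on chromosome 5 and 1 each on chromosomes 2 and 4. The 8 regions held 37 of the 60 and 16 of the 24, and 632 of all 1500 called genes. Such genes reached the test only through their counts in other libraries, so these numbers do not test a loss or gain of expression. Of these, 46 of the 60 had 0 counts in both low Pi libraries of bzr1-D, and 20 of the 24 in both low Pi libraries of wild type. Folds against 0 are bounds, computed from 3 counts per library, which correspond to 0.171 CPM in bzr1-D and 0.143 CPM in wild type. In bzr1-D, the pseudogene AT3G03855 was at least 164-fold lower than its 23.2 and 32.8 CPM in wild type, AT1G65985, encoding a putative transmembrane protein with a DUF247 domain, at least 153-fold lower than 25.4 and 26.8 CPM, and AT5G26270, of uncharacterised product, at least 141-fold lower than 29.4 and 18.8 CPM.

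The non-coding RNA AT5G43403, which starts at 17430539, close to the PHT1 cluster, was at least 88.8-fold lower in bzr1-D than its 13.0 and 17.4 CPM in wild type. AT5G43040, encoding a Cys/His-rich C1 domain protein, was at least 66.2-fold lower than its 13.3 and 9.35 CPM. AT5G46510, a TIR-NBS-LRR disease resistance gene, was at least 56.9-fold lower than its 10.1 and 9.35 CPM. NBS-LRR genes and pseudogenes belong to families with close copies, so their counts are less certain than those of single-copy genes.

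In the other direction, the retroelement SADHU5-2 had 16.0 and 18.9 CPM in bzr1-D, at least 122-fold higher than in wild type, where it had 0 counts at either Pi supply. The intergenic RNA At1NC034500 had 12.9 and 12.1 CPM in bzr1-D, and the intergenic RNA RLFS_026263 had 7.07 and 12.7 CPM, at least 87.4-fold and 69.1-fold higher than in wild type. AT5G35965, a pseudogene, had 8.42 and 11.1 CPM in bzr1-D, at least 67.9-fold higher than in wild type, and the pseudogene AT5G27345 had 4 and 4.04 CPM, at least 28.0-fold higher. AT5G37940, annotated as a zinc-binding dehydrogenase, had 4.11 and 2.05 CPM in bzr1-D (at least 21.5-fold higher), and AT1G10880, annotated as a glycosyltransferase, had 1.92 and 2.92 CPM (at least 16.9-fold higher). AT1G24390 and AT1G24388 overlap each other and cannot be told apart where the strand setting is unknown; they had 4.78 and 3.36 CPM and 2.24 and 2.05 CPM in bzr1-D and 0 counts in wild type.

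By annotation class, 65 of 272 tested pseudogenes were called (23.9%), 47 of them with an absolute log2 fold change of at least 3, against 1374 of 19481 protein-coding genes (7.05%), of which 149 reached 3. Families picked by product name after the values were seen gave 27 called of 141 cytochrome P450 genes (19.1%), 8 higher and 19 lower, and 11 of 81 peroxidase genes (13.6%). Outside the 8 regions the shares were 16.9% for cytochrome P450 genes and 12.7% for peroxidases, against 5.0% of all features there, an average over unlike windows. For annotated disease resistance proteins the share was 16.2% (6 of 37) in all and 6.9% (2 of 29) outside the regions. Ribosomal protein genes had 9 called of 313 (2.88%).

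The genotype difference was also read in the 4 low Pi libraries, which share no library with the comparison. They did enter its fit, through the shared spread and Exp shift. Deviations from group means of libraries with the same Exp number correlated at 0.604 and 0.643 within a genotype across the supplies. Between the genotypes at the same supply they correlated at 0.45 and 0.302. The signs below are therefore not independent of the calls. Of the 1500 genes called at adequate Pi, 1491 (99.4%) had the same sign there, against 67.7% of the features not called. At low Pi, 782 features were called higher (3.86%) and 1041 lower (5.14%), and 1148 genes were called in the same direction at both supplies, 76.5% of those called at adequate Pi and 63.0% of those called at low Pi. All 673 called genes with an absolute log2 fold change of at least 1 kept their sign. Directly tested, the genotype difference at adequate Pi differed from that at low Pi for 0 of 20262 features (0.0%) with edgeR's quasi-likelihood test, while 646 had an unadjusted p under 0.05 and the smallest adjusted p was 0.0788; DESeq2 called 1 and limma-voom 0.

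**Figure D5:**
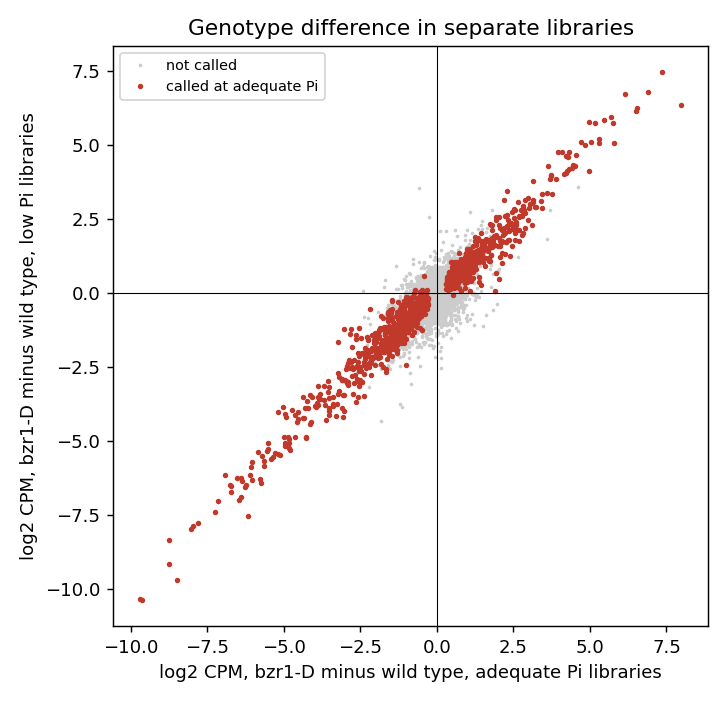
Each point is a tested feature, with the difference of mean log2 CPM, bzr1-D minus wild type, in the adequate Pi libraries on the x axis and in the separate low Pi libraries on the y axis. Red points are the 1500 called at adequate Pi, of which 1491 have the same sign on both axes.

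Single genes followed this. CPD differed by -0.78 at low Pi (edgeR adjusted p = 0.000242), DWF4 by -0.94 (0.00587), CYP90D1 by -1.80 (6.57e-06), BR6OX2 by -1.03 (0.000111), BRAVO by -1.60 (7.58e-05) and BEE1 by 2.01 (0.00136), each called and in the same direction as at adequate Pi. Some genes called at adequate Pi were not called at low Pi: BR6OX1 (-0.16, edgeR adjusted p = 0.665), IRE (-0.25, edgeR adjusted p = 0.333), MYB12 (-0.31, edgeR adjusted p = 0.141) and UGT78D2 (-0.02, edgeR adjusted p = 0.939). The differences between the supplies, adequate minus low Pi, were -0.43 ± 0.23, -0.61 ± 0.20, -0.35 ± 0.16 and -0.38 ± 0.15 for these 4 genes, each with an edgeR adjusted p of 1.0, so a dependence on Pi supply is not shown for them.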

How the data were processed

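Poly(A) RNA of roots was sequenced as 50-base single reads, and the authors deposited 1 table of raw counts per feature for 8 libraries, with no normalization, per the file headers and values. TopHat2 2.0.11, HTSeq 0.6.1, DESeq2 1.2.8 and TAIR10 appear, per the submitters' processing notes, without settings; strand and multi-mapping rules are not stated there, which bears on overlapping genes and near-identical copies. Titles gave the groups; the strain and tissue tags stand swapped in the labels.

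Counts were fitted with edgeR 4.0.16 (R 4.3.3; quasi-likelihood, robust, TMM, minimum count 10) over all 8 libraries, with 4 group coefficients and the Exp number as a replicate block, leaving 3 residual degrees of freedom. Deviations of libraries with the same Exp number from their group means correlated at 0.29 to 0.643 in the 6 group pairs, and the numbers were taken as pairing. They were highest within a genotype across the supplies, at 0.604 and 0.643. The block fits the same Exp shift to all groups. A shift that differs between genotypes is not modelled, so the p-values of the genotype difference may be too small. Replicate libraries differed beyond sampling noise (chi-square per degree of freedom from 16.9 to 36.3). P-values were adjusted over 20262 features; an SE is the log2 fold change over the square root of F. DESeq2 1.42.0 and limma 3.58.1 (voom) were alternatives. The procedure was also run on simulated counts in which all groups shared the same Exp shift. That run does not cover an Exp shift that differs between genotypes, so it does not vouch for the calls in these data. Exact permutation of 2 against 2 libraries cannot go below p = 0.333, so none was used. Intervals and bounds cover counting error only.

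Of 298 list members, 293 matched the reference by name and locus. Members and lists were chosen with earlier results of these data known. Named genes are BZR1, BRI1, BKI1, CPD, DWF4 and BES1, all called list members, the 10 largest changes each way at 1 CPM or more, the 3 genes of smallest p per dense window, and up to 5 genes each way with 0 counts in a genotype; other genes are values beside them, and 1 gene of this rule is not reported here. Deposited starts lay within 2 kb of TAIR10.1 for 99.8% of 32940 matched features.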

Additional observations from a re-analysis of the deposited data

How the results depend on the processing

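None of the called genes among the 60 named ones changed direction under the alternatives run for them. Without the replicate block, 143 genes were called higher and 261 lower, 266 called genes lay outside dense windows and 138 inside, 100% of called genes had the same direction in the low Pi libraries, and 3 list members were called higher and 2 lower; all 404 genes were also called with the block. With the 4 adequate Pi libraries alone and no block, the counts were 106 higher, 197 lower, 203 outside dense windows, 100% in the same direction, and 3 and 2 list members; with the block, 20 list members were called higher and 16 called genes lay in dense windows. Leaving out 1 library at a time gave 220 to 785 higher and 394 to 1181 lower, the upper ends when a low Pi library was left out, a setting chosen after seeing the data; 128 to 201 called genes inside dense windows and 466 to 639 outside; 99% to 100% in the same direction; and 2 to 6 list members higher and 6 to 15 lower. The left-out ranges for dense windows, direction and list members cover only the 4 fits without an adequate Pi library. The ranges of genes called higher and lower also cover the fits without a low Pi library. Requiring an absolute log2 fold change of at least 1 left 255 higher and 418 lower. Dense windows held 67 called genes with no filter on low counts and 16 with windows of 2 Mb. With 2 times the background share, chosen after seeing the data, they held 632, with 868 outside, 344 higher and 524 lower. The difference between supplies was called for 1 gene with no filter and for 1 with DESeq2. DESeq2 called 391 higher and 645 lower at adequate Pi, and limma-voom 567 and 905. Among 60 named genes, 51 kept their side of the threshold with DESeq2, 59 with limma-voom, 60 with RLE scaling, 35 without the block, and 39 to 46 with an adequate Pi library left out. The causes were not tested, beyond the fewer libraries or features that some settings use by construction. With 2 libraries per group and 3 residual degrees of freedom, genes near 1 CPM that did not pass may still differ.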
